A study of Mus musculus with 2 samples.

Results

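The 9 genes Mbp, Mog, Mag, Mobp, Cnp, Mal, Cldn11, Ermn and Opalin encode proteins of the myelin sheath, and they were taken by symbol from the 32285 genes counted in each of 2 single-cell libraries. Each symbol matched 1 gene. Their UMIs (unique molecular identifiers, each standing for 1 captured RNA molecule) were summed over the cells of a type, with types set by marker genes that include none of the 9. Of interest was which of the 9 a cell made itself and which it carried as free RNA, released from other cells and captured with the cell.

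Cells came from optic nerves of Nf1-OPG mice (Nf1flox/neo; GFAP-Cre), a model of optic glioma in which all cells carry a germline Nf1 allele disrupted by a neomycin cassette and Cre under the GFAP promoter removes the other allele in neuroglial progenitors. The vancomycin group received that antibiotic from 6 to 12 weeks of age, and the control group carries the label control, PBS being the alternative named in the design. Both groups were 12 weeks old at harvest, and each is 1 library of nerves pooled from 10 mice, so no test between groups was possible and intervals cover counting error only. Dissociated nerves went through removal of debris and of myelin, and the protocol also describes sorted cells of the dura, so the free myelin RNA measured here is what remained after that step.

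Myelin is a stack of membrane wrapped around axons by oligodendrocytes. Myelin basic protein, encoded by Mbp, holds the inner faces of the membrane together, and its mRNA is carried along the cell's processes and translated at the sheath. Mobp mRNA is transported to the sheath as well. The Mbp gene also makes golli transcripts from an upstream start, known in T cells and other blood cells and in the nervous system, and counts per gene do not separate them from myelin transcripts.

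The vancomycin library kept 15726 cells with a median of 6970 UMIs, and the control library 4108 cells with a median of 4871. The vancomycin library held 3563 gated mature oligodendrocytes, 50 committed progenitors and 640 precursors. The control library held 0, 1 and 23, and 0 of 4108 cells allows a share of mature oligodendrocytes of up to 0.0730%, although its tissue label is optic nerve. The 9 genes gave 1545696 UMIs in kept vancomycin cells (1.09% of all UMIs) and 4468 in kept control cells (0.0178%). Treatment, library and the makeup of the cell suspension cannot be told apart. The libraries shared 100 barcodes, and 15 kept control cells had the barcode of a vancomycin oligodendrocyte. Those 15 cells held 2.20 UMIs of the 9 genes per cell and 0 Mobp UMIs, against 1.08 per cell and 27 Mobp UMIs in the 4017 control cells whose barcode was not in the vancomycin library. So few cells cannot show a difference for Mobp.

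Promoters are shown for 4 of the 9 genes, chosen because the genes differ along the lineage as described next: in committed progenitors Cnp and Mag stood above the T cell level, whereas Mobp and Mal were not detectably above it. Sequences are from RefSeq (GRCm38.p6), from 250 bases before to 50 bases after the start, written 5′ to 3′ along the gene's strand. RefSeq windows were matched for 8 of the 9, and Mbp was left out of the matching. In the GENCODE M21 annotation of GRCm38, Cnp spans chr11:100574904-100591729, Mag chr7:30899176-30914873, Mobp chr9:120149707-120181484 and Mal chr2:127633226-127656695. Ermn lies on chromosome 2, Cldn11 on 3, Mog on 17, Mbp on 18 and Opalin on 19. Capitals mark CTGGCAC, a form of the site bound by MYRF, and ACAAAG, a core of sites bound by SOX factors such as SOX10, on either strand. MYRF and SOX10 are the transcription factors that drive myelin genes.
Cnp, chr11:100574689-100574988, plus strand: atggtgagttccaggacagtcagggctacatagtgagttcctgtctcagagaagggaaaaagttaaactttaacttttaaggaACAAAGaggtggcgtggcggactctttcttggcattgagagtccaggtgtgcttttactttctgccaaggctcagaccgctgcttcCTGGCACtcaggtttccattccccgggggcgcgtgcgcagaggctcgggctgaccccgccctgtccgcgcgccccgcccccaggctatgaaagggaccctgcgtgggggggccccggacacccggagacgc
Mag, chr7:30914814-30915113, minus strand: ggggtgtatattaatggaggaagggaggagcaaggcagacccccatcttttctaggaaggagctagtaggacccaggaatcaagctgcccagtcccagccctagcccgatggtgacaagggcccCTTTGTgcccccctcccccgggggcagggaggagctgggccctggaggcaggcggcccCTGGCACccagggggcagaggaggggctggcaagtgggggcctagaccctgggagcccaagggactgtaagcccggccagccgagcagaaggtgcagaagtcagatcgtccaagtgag
Mobp, chr9:120149492-120149791, plus strand: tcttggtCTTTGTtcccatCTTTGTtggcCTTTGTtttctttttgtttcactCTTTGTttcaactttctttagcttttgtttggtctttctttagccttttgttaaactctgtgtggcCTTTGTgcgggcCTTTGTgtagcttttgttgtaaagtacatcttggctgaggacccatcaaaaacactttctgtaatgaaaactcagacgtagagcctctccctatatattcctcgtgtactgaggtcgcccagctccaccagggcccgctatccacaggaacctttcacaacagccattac
Mal, chr2:127656646-127656945, minus strand: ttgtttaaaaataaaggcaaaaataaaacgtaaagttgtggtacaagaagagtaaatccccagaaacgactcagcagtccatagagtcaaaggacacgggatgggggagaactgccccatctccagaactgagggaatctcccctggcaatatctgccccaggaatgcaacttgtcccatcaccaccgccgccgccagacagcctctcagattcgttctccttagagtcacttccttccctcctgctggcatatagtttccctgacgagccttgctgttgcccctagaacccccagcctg

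Cnp and Mag each held 1 match to both motifs, Mobp held 6 matches to ACAAAG, and Mal held neither. CTGGCAC occurred in 3 of the 8 promoters (Cnp, Mag and Opalin), against 5.0% of 27025 promoters of the same length. ACAAAG occurred in 4 of the 8 (the same genes and Mobp), against 18.7% of all, and Mobp was the 1 promoter among the 27025 with 6 or more matches. No match of the motifs overlapped another in the promoters shown. Opalin, Cldn11 and Mog, not shown, also stood above the T cell level in committed progenitors, Opalin not clearly so at equal depth. Opalin held both motifs, and Cldn11 and Mog held neither. Ermn, not detectably above that level, held neither. Whether the motifs go with the stage was not tested. A match is a description of letters and not a site.

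Every one of the 9 genes was abundant in mature oligodendrocytes of the vancomycin library. Among the genes of compact myelin, Mbp had 81.1 UMIs per cell (median 74, highest 416), Mal, a lipid raft protein, 57.9 (median 50, highest 621), and Mobp, a basic protein of the sheath, 20.4 (median 18, highest 201). Among the genes of the inner and non-compact layers, Cnp, an enzyme that keeps cytoplasmic channels open, had 59.2 UMIs per cell, and Mag, the adhesion protein facing the axon, had 54.5. Ermn, a cytoskeletal protein, had 21.3 and Opalin, a membrane protein of central myelin, 8.02. Mog, the protein of the outermost surface, had 24.6, and Cldn11, which forms the radial junctions, 40.1. A UMI of each member but Opalin was found in 99.9 to 100% of these cells, and one of Opalin in 76.1%. A level compares a gene between cell types on the scale of UMIs per cell. A UMI marks the 5′ end of a molecule and is not divided by gene length, and capture can differ between genes.

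Opalin and Ermn differed in level within the oligodendrocytes. When the cells were divided at 10 UMIs of Klk6, a secreted protease of mature oligodendrocytes, 1780 cells lay at or above and 1783 below, with medians of 13443 and 8446 UMIs. Opalin had 5.32 UMIs per cell in cells with at least 10 Klk6 UMIs, against 10.7 in cells with fewer, or 1.25% against 3.46% of the UMIs of the 9 genes. Ermn went the other way, with 28.5 against 14.2 UMIs per cell (6.73% against 4.57%). Because the cells with at least 10 Klk6 UMIs were deeper, CPM (UMIs of a gene relative to all UMIs of the cells) gave a smaller difference for Ermn, 1880 against 1516, and a larger one for Opalin, 350.5 against 1146. Mal had 56.9 against 58.9 UMIs per cell and 3747 against 6303 CPM. The Mbp share was 22.5% against 21.5%. This division was chosen after the values were seen.

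Committed progenitors, the stage between precursor and mature cell, had some members and not others. Among these 50 cells Cnp had 49.7 UMIs per cell (interval 47.8 to 51.7), against 59.2 in mature cells, and every cell had at least 1. Its median was lower, at 27.5 with a highest value of 199, against a median of 54 in mature cells. Mbp had 38.1 UMIs per cell, with a median of 8.5, a highest value of 287, and no UMI in 12 cells. Cldn11 had 12.5, Mag 10.1, Mog 3.54 and Opalin 0.680, each above T cells of the same library (0.0338, 0.0447, 0.0250 and 0.0109). These means came from part of the cells: Mag had a UMI in 48% of them, with a median of 0 and a highest value of 65, Cldn11 in 66%, Mog in 40% and Opalin in 22%. Mobp, Mal and Ermn had 0.300, 0.120 and 0.0400 UMIs per cell, with intervals from 0.168 to 0.495, 0.0440 to 0.261 and 0.00484 to 0.144. Those intervals include the levels in T cells, 0.264, 0.0684 and 0.0618, so expression of these 3 genes above the free RNA was not detectable in 50 cells.

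In the 640 precursors, which divide and give rise to committed progenitors, Cnp stood above the T cell level, at 2.46 UMIs per cell against 0.545, and so did Cldn11, at 0.198 against 0.0338, and Mag, at 0.0938 against 0.0447. Precursors were deeper than T cells, with medians of 6377 and 4099 UMIs. After thinning every cell to 1000 UMIs, Cnp was found in 26.6% of precursors, against 10.6% of T cells, and Cldn11 in 3.15%, against 0.777%. Mag was found in 1.10% (0.444 to 2.26), against 0.991% (0.699 to 1.36), so its higher level was not seen at equal depth. Mbp (4.56 against 4.81 UMIs per cell), Mobp (0.292 against 0.264) and Opalin (0.00938 against 0.0109) lay near the T cell level.

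**Figure D1:**
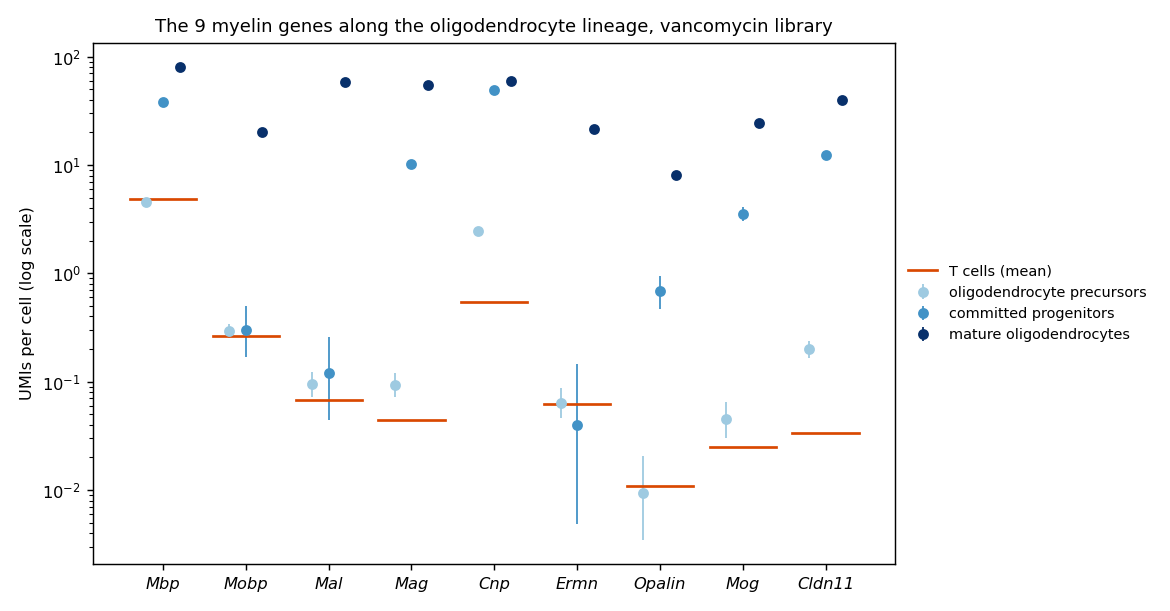
Mean UMIs per cell (log scale) of the 9 myelin genes in precursors, committed progenitors and mature oligodendrocytes of the vancomycin library, with 95% Poisson intervals, and the mean in T cells as an orange line. Mobp, Mal and Ermn in committed progenitors lie at the T cell line, whereas Cnp has a mean of 49.7, against 59.2 in mature cells (medians 27.5 and 54).

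The myelin RNA found in cells of other kinds had another makeup than the oligodendrocytes. In vancomycin microglia Mbp was 80.0% of the UMIs of the 9 genes (interval 79.1 to 80.8) and in vancomycin T cells 82.0% (81.5 to 82.5), against 33.1% in committed progenitors and 22.1% in mature oligodendrocytes. Over 12 cell types outside the lineage with at least 50 cells, the Mbp share ran from 53.3% in endothelial cells to 84.5% in erythroid cells, with a median of 78.5%. The share of Mobp ran from 3.25 to 5.79% over the 12 types, with 4.93% in microglia and 4.51% in T cells, against 5.55% in mature oligodendrocytes. Mag, Mal, Cldn11, Mog and Ermn together carried most of the difference: in mature oligodendrocytes they were 14.8, 15.8, 10.9, 6.71 and 5.82%, against 0.763, 1.17, 0.577, 0.427 and 1.05% in T cells.

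**Figure D2:**
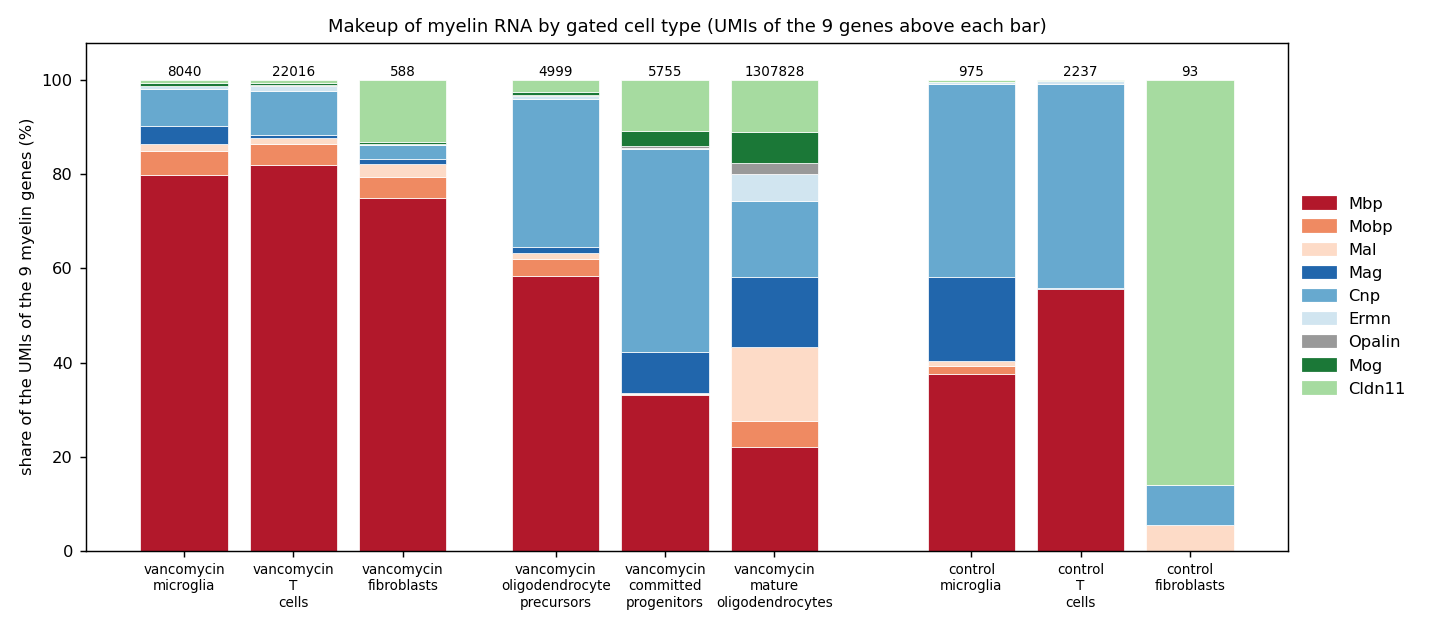
Share of each gene among the UMIs of the 9 myelin genes (%), by gated cell type, vancomycin library on the left and control library on the right, with the UMI total above each bar. Mbp takes 75.0 to 82.0% in vancomycin microglia, T cells and fibroblasts, against 22.1% in mature oligodendrocytes.

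Set against the oligodendrocyte level of the same gene, Mbp stood highest, Mobp and Cnp followed, and the other 6 members were lower in T cells. Mbp in T cells stood at 5.93% of its level in mature oligodendrocytes (interval 5.84 to 6.02), Mobp at 1.30% (1.22 to 1.38) and Cnp at 0.921% (0.881 to 0.961). These percentages are not corrected for the level in control T cells. Cnp had 0.545 UMIs per cell in vancomycin T cells, against 0.516 in control T cells. Mbp had 4.81, against 0.662, and Mobp 0.264, against 0. Mog, Mag, Mal, Cldn11, Ermn and Opalin stood at 0.0821 to 0.289%, so Mbp stood at 20.5 to 72.2 times and Mobp at 4.49 to 15.8 times the percentage of these 6. Microglia gave 6.01% for Mbp, 1.47% for Mobp, 0.821% for Cnp and 0.432% for Mag, and 0.0964 to 0.158% for Mog, Mal, Cldn11, Ermn and Opalin. Over the 12 cell types the medians were 5.70% for Mbp, 1.30% for Mobp and 0.804% for Cnp.

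The ratio of Mobp to Mbp was lower in each of the 12 types than in mature oligodendrocytes, where it was 25.1 UMIs per 100 Mbp UMIs. It ran from 4.17 in dendritic cells (3.48 to 4.97) to 7.77 in endothelial cells (5.24 to 11.1). In T cells it was 5.50 (5.15 to 5.86). Dendritic and endothelial cells were the lowest and highest of the 12 types, picked after the values were seen. The intervals cover counting error only. Mbp had a variance 26.2 times the mean in dendritic cells and 8.51 times in endothelial cells. The intervals thus cannot decide whether the ratio differs between the 12 types. Precursors had 6.41 and committed progenitors 0.787, so for Mobp the 12 types lay between committed progenitors and mature cells. Mog and Mag lay below both of those stages: the 12 types had 0 to 0.855 Mog UMIs per 100 Mbp UMIs, against 9.29 in committed progenitors and 30.4 in mature cells, and 0.414 to 4.82 Mag UMIs, against 26.6 and 67.2. Whether position of the mRNA in the oligodendrocyte, capture or the removal of myelin bears on this makeup was not tested.

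**Figure D3:**
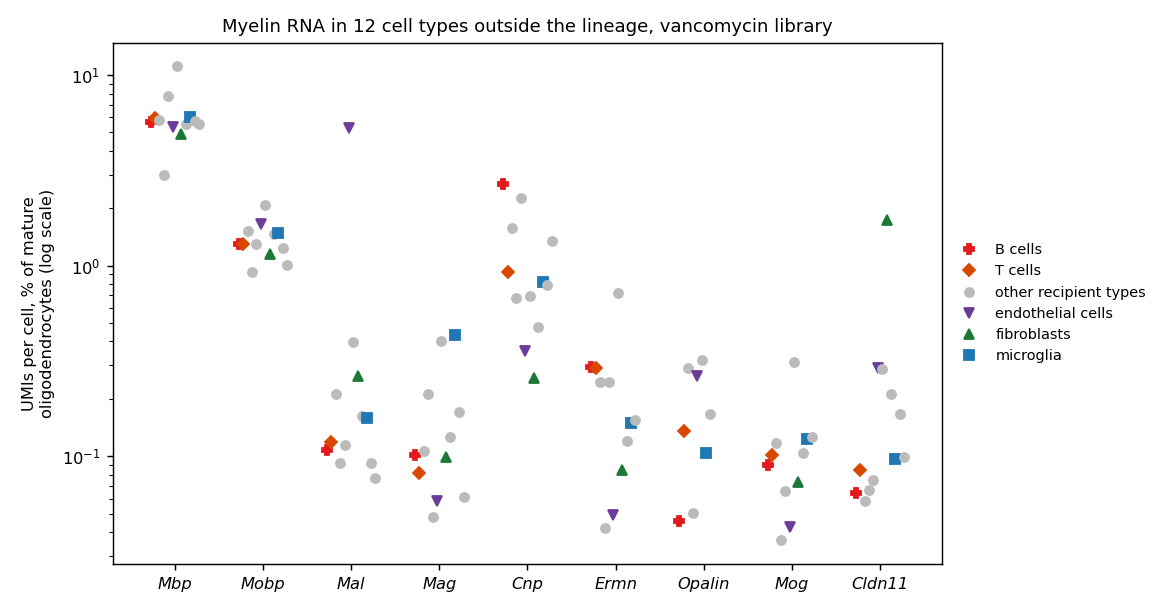
UMIs per cell of the 9 myelin genes in 12 cell types outside the lineage, as a percentage of mature oligodendrocytes (log scale), vancomycin library; points at 0 are not drawn. Mbp lies between 3.01 and 11.1% and Mobp between 0.921 and 2.08%, above the other genes except that Mal in endothelial cells, Cldn11 in fibroblasts and Cnp in 4 of the 12 types exceed Mobp.

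Fibroblasts gave the plainest case, because in the control library they held no Mbp. Vancomycin fibroblasts had 441 Mbp UMIs in 111 cells (3.97 per cell), against 0 in 71 control fibroblasts, where 0 allows a share of cells with a UMI of up to 4.23%. Mobp had 26 UMIs, Mog 2 and Mag 6 in vancomycin fibroblasts, against 0 of each in control fibroblasts. Mbp stood at 4.90% of its oligodendrocyte level there (4.45 to 5.38), Mobp at 1.15% (0.752 to 1.69) and Mag at 0.0993% (0.0364 to 0.216). The order of the 3 genes was that of T cells.

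T cells had Mbp and Cnp in the control library too, with few or no UMIs of the other 7 members. Control T cells held 1246 Mbp UMIs in 1881 cells (0.662 per cell), and 42.5% of them had at least 1. Cnp had 971 UMIs (0.516 per cell) in 34.1% of the cells, and Ermn 18 UMIs in 11 cells. Mobp, Mog, Mal and Opalin had 0 UMIs in those cells, which allows up to 0.159% of cells with a UMI, and Mag and Cldn11 had 1 each. Mbp there went with depth: the mean total was 9356 UMIs in the 35 cells with 4 to 7 Mbp UMIs and 4977 in cells with none. Control natural killer cells had 0.509 Mbp UMIs per cell and control microglia 0.326, whereas control plasma cells had 6 UMIs in 53 cells and control astrocytes 9 in 61. Golli and myelin transcripts of Mbp were not separated.

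Further levels stood apart from this pattern. Cnp stood at 2.68% of its oligodendrocyte level in B cells and 2.25% in dendritic cells, and vancomycin T cells had 0.545 Cnp UMIs per cell, against 0.516 in control T cells. Mal had 3.06 UMIs per cell in vancomycin endothelial cells, 5.29% of its oligodendrocyte level, with a UMI in 75.8% of 95 cells. Cldn11 had 0.694 UMIs per cell in vancomycin fibroblasts and 1.13 in control fibroblasts. Mag had 0.235 in vancomycin microglia and 0.155 in control microglia, against 0.0447 and 0.000532 in T cells of the same libraries. Doublets cannot be told apart from free RNA in a single cell, and 22 vancomycin T cells and 5 vancomycin microglia had a Scrublet score above 0.2.

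Free myelin RNA was spread unevenly over cells. Among 3757 vancomycin T cells Mbp had a median of 2 UMIs, a highest value of 141 and a variance 17.5 times the mean, against 1.40 times in control T cells. The 15 T cells with 64 or more Mbp UMIs had 2.73 Mobp, 0.600 Mal and 0.267 Mag UMIs per cell. The 1143 T cells with no Mbp UMI had 0.0604, 0.0341 and 0.0210. T cells with Mbp were mostly deeper than those without: the mean total was 5508 to 6009 UMIs in the bins from 1 to 63 Mbp UMIs and 4652 in the 15 richest cells, against 4790 in cells with no Mbp UMI. Microglia with Mbp averaged 7341 to 9699 UMIs by bin, against 6577 without.

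Mobp thus went up with Mbp across cells. Cnp in T cells differed less, at 0.867 UMIs per cell with 64 or more Mbp UMIs, against 0.436 without Mbp. In microglia with 32 to 63 Mbp UMIs Mobp had 1.33 and Mag 0.259 UMIs per cell, against 0.0798 and 0.209 in microglia without Mbp. Spearman's rho of Mbp with Mobp over cells was 0.333 in T cells and 0.349 in microglia, and that of Mbp with total UMIs 0.0864 and 0.0980. These describe cells of 1 library that share depth and free RNA.

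**Figure D4:**
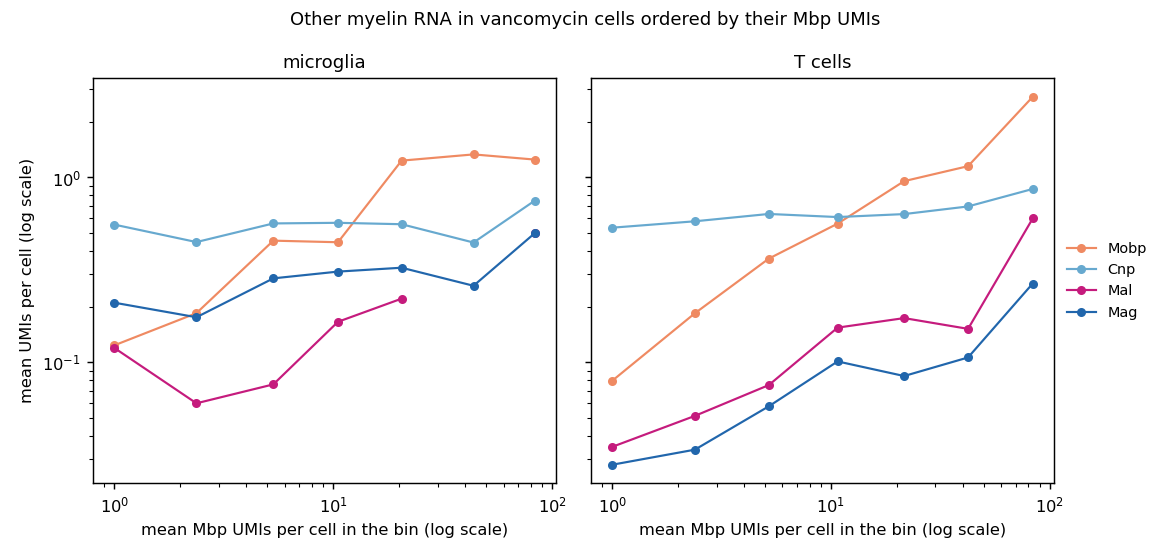
Mean UMIs per cell of Mobp, Cnp, Mal and Mag (log scale) in vancomycin microglia and T cells, in bins of cells by their Mbp UMIs (mean of the bin, log scale); cells without Mbp and bins at 0 are not drawn. In T cells Mobp reaches 2.73 in the 15 cells richest in Mbp, while Cnp stays between 0.535 and 0.867.

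Microglia clear myelin debris, so their myelin RNA was set against that of T cells of the same library. In the vancomycin library microglia had 6.10 UMIs of the 9 genes per cell, against 5.86 in T cells, a ratio of 1.04 (1.01 to 1.07). The ratio was 1.01 for Mbp, 1.14 for Mobp (1.01 to 1.28), 1.21 for Mog (0.815 to 1.77) and 1.34 for Mal (1.07 to 1.67). Ermn was lower in microglia, at 0.516 (0.362 to 0.719), and Mag higher, at 5.26 (4.34 to 6.38). Mag was the single member with at least 2-fold more in microglia, a size that 24.0% of all genes reached. A Mbp UMI was found in 69.6% of microglia and in 69.6% of T cells, at medians of 6341 and 4099 UMIs, and after thinning to 1000 UMIs in 35.9% and 40.3%, with 41 and 23 cells left out. On the CPM scale the ratio of the 9 genes was 0.757, and with every cell thinned 0.790, so the order of the types turned with the scale.

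Free RNA of other sources did not share a single ratio. Haemoglobin genes stood at 1.37 in microglia over T cells (1.25 to 1.51), the hormone genes of the pituitary at 0.686 (0.574 to 0.815), immunoglobulin genes at 0.706 and collagen and matrix genes at 0.229. The 1.04 of the 9 myelin genes lies inside this range. The share of cells with a UMI pointed the other way from the mean for each of these lists, with intervals apart for immunoglobulin only. For immunoglobulin it was 72.5% of microglia (70.0 to 74.9) and 62.3% of T cells (60.7 to 63.9). For haemoglobin it was 17.2% (15.2 to 19.4) and 19.2% (17.9 to 20.5). For hormone genes it was 10.9% (9.28 to 12.7) and 8.81% (7.92 to 9.76). For collagen and matrix genes it was 1.52% (0.929 to 2.33) and 1.33% (0.989 to 1.75). These shares were not thinned, and microglia were deeper than T cells (medians 6341 and 4099 UMIs). The 447 collagen and matrix UMIs of T cells thus lay in few cells. The astrocyte list stood at 30.9, of which Slc1a3, a glutamate transporter, gave 2138 of 2236 microglial UMIs and 36 of 206 in T cells. Slc1a3 also had 1.17 UMIs per cell in control microglia, against 0.00159 in control T cells. The ratio of this list thus need not be one of free RNA.

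The control library gave another picture at far lower levels. Control microglia had 0.866 UMIs of the 9 genes per cell, against 1.19 in control T cells, a ratio of 0.728 (0.675 to 0.785), with Mbp at 0.492. Mobp had 16 UMIs in 15 control microglia, against 0 in T cells. With the floor of 3 counts over the T cells it was 8.91-fold higher (counting interval from 6.44). Mag stood at 291 (51.5 to 11546), and at least 2-fold more in microglia was reached by 20.5% of all genes. Haemoglobin stood at 0.896 (0.771 to 1.04) and hormone genes at 1.36 (0.981 to 1.87). A Mobp UMI was found in 19.5% of vancomycin microglia and 16.8% of vancomycin T cells, against 1.33% of control microglia (0.747 to 2.19) and 0 of 1881 control T cells, at medians of 5012 and 5064 UMIs in the control library. Mobp had 2 UMIs in 61 control astrocytes. Mal had 9 of its 11 UMIs in 1 control microglia cell, and Cldn11 all 3 in 1. Whether the Mobp RNA of control microglia had been taken up was not tested.

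**Figure D5:**
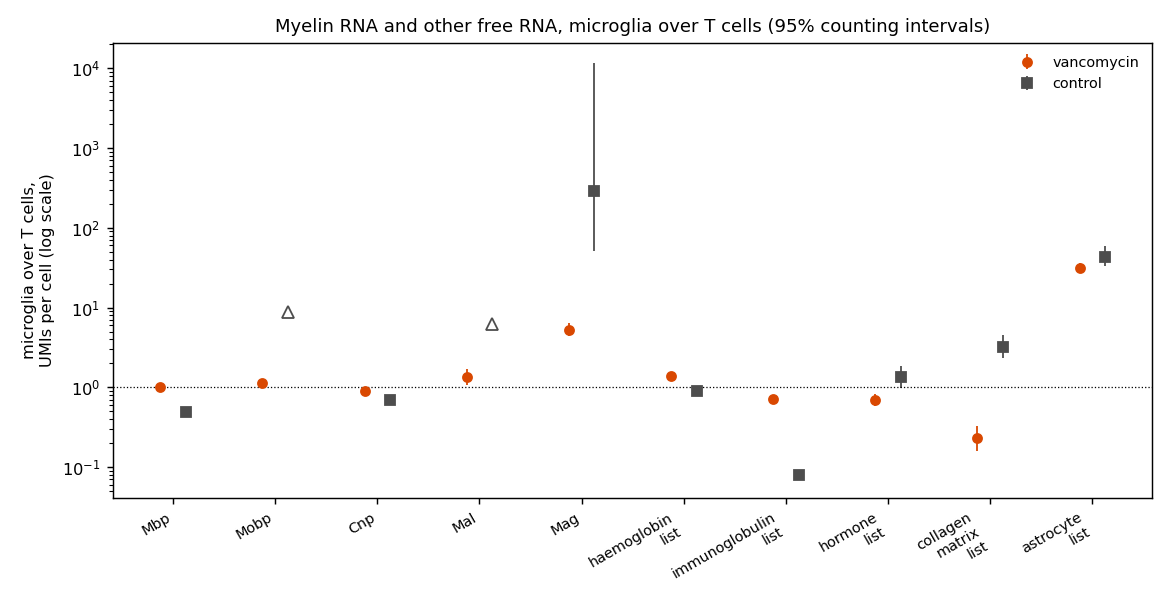
Ratio of UMIs per cell, microglia over T cells (log scale), for myelin genes and lists of other free RNA, vancomycin left of control at each item, with 95% counting intervals; open triangles are lower bounds where T cells had 0. In the vancomycin library Mbp, Mobp and Cnp lie between 0.892 and 1.14, whereas in the control library Mbp lies at 0.492 and the bound for Mobp at 8.91.

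Genes of uptake and lipid handling were then compared between microglia with and without a Mobp UMI. In the vancomycin library 257 microglia carried such a UMI and 1062 did not, with medians of 6714 and 6201 UMIs. Of the 24 genes, 22 had at least 50 UMIs, and 0 were 2-fold higher or lower after adding 10 CPM, a size reached upward by 0.280% and downward by 0.197% of all genes. Without that addition Gpnmb, a membrane glycoprotein of phagocytes named after its values were seen, had 22.2 CPM in carriers, against 7.95 in the others, a ratio of 2.79 (1.86 to 4.15). The counting interval of the plain ratio lay above 1 for 5 genes of the list and below 1 for 2. Log2 ratios of the 5 most abundant lay near 0. Apoe, a lipid carrier, had a log2 ratio (carriers over the others, after adding 10 CPM) of 0.01, the proteases Ctsd and Ctsb 0.07 and 0.13, the adaptor Tyrobp -0.03 and the sterol carrier Npc2 0.03. The median over the list was 0.05, against -0.02 over all genes. In the control library 15 microglia carried a Mobp UMI, below the minimum of 50 cells, and 1111 did not, with medians of 2838 and 5018 UMIs. The median log2 ratio over the list was 0.20 there, against -0.23 over all genes. So few carriers cannot show a difference for single genes, and no count is given.

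Microglia were also divided at 0.1% of UMIs from 3 MHC class II genes. In the vancomycin library the 973 cells at or above had 6.08 UMIs of the 9 genes per cell, against 6.13 in the 346 below, with Mbp at 79.0% against 82.6%. In the control library the 371 cells at or above had 1.06, against 0.770 in the 755 below. CD4 and CD8 T cells of the vancomycin library had 5.97 and 6.03 UMIs of the 9 genes per cell and Mbp shares of 82.1 and 82.0%. Within 1.5 times of the class II limit lay 33 vancomycin and 55 control cells.

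Between the libraries, the sum of the 9 genes was 1076 CPM in vancomycin T cells, against 207 CPM in control T cells, a log2 ratio of 2.33 after adding 10 CPM to each. In microglia it was 815 CPM, against 141 CPM, a log2 ratio of 2.45. In T cells Mbp had 882 CPM, against 115, and Mobp had 48.5 CPM, against 0. With the floor of 3 counts over the control T cells, Mobp was 175-fold higher (counting interval from 142). Mal was 45.3-fold (from 36.6) and Mog 16.6-fold higher (from 13.2). Cnp had 100.1 CPM, against 89.6. A log2 ratio of at least 1 after adding 10 CPM was found in T cells for Mbp, Mobp and Mal among the 8 members with 50 UMIs over both libraries, with 0 lower, against 2.26% of all genes higher and 1.23% lower. The median over all 9 members was 0.85 and that of all genes 0.04. This count depends on the amount added: with 1 CPM added, 7 of the 8 were higher in T cells and 0 lower, the exception being Cnp, against 10.4% of all genes higher and 3.09% lower. Plain ratios were 88.9 for Mag (15.7 to 3533), 67.2 for Cldn11 (11.8 to 2676) and 6.82 for Ermn (4.22 to 11.7). Most members passed the minimum only through the vancomycin library, so this count supports nothing by itself.

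In microglia 2 of 6 members with enough UMIs were higher by that measure, Mbp (651 CPM, against 53.2) and Mobp (40.1 CPM, against 2.32), with 2.56% of all genes higher and 2.28% lower. With 1 CPM added 4 of the 6 were higher and 0 lower, against 7.46% and 4.60% of all genes, and Cnp and Mag were not. Cnp had 64.9 CPM, against 57.8, and Mag 31.4, against 25.2. In astrocytes 2 of 3 were higher and 0 lower (5.95 and 4.18% of all genes), in natural killer cells 1 of 2 and 0 (3.80 and 6.56%), in plasma cells 1 of 3 and 0 (2.76 and 1.22%) and in fibroblasts 1 of 2 and 0 (4.24 and 4.69%). Mbp was among the higher ones in each type. In these types too, members could pass the minimum through the vancomycin library alone, so these counts support nothing by themselves. Cldn11 in fibroblasts had 135 CPM in the vancomycin library, against 227 in the control library, a log2 ratio of -0.71. Of the 23 other myelin and oligodendrocyte genes, 6 of 14 with enough UMIs were higher in T cells and 0 lower (2.26 and 1.23% of all genes). In microglia 4 of 14 were higher and 0 lower (2.56 and 2.28% of all genes). The medians over all 23 were 0.54 and 0.31. Genes of this list could also pass the minimum through the vancomycin library alone, so these counts support nothing by themselves either.

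Those 23 genes stood at 0.0422 to 3.02% of their oligodendrocyte level in vancomycin T cells, with a median of 0.218%. Among the most abundant in oligodendrocytes were the iron carrier Trf (0.172%), the lipid carrier Apod (0.218%), the carbonic anhydrase Car2 (0.486%) and the prostaglandin synthase Ptgds (0.449%). In UMIs per cell, Trf had 0.282 in vancomycin and 0.0856 in control T cells, and Apod 0.227 and 0.00585. Car2 had 0.208 and 0.133, and Ptgds 0.191 and 0.0787. The percentages thus include levels that T cells also had in the library without gated mature oligodendrocytes. Mbp had the highest percentage among all 32 genes, and Mobp the fourth. Sirt2, a deacetylase (3.02%), and Plekhb1, a membrane-associated protein (2.22%), lay between them and were named after their values were seen. Plekhb1 had 0.263 UMIs per cell in vancomycin T cells, against 0.00159 in control T cells, whereas Sirt2 had 0.395, against 0.364.

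The mean profile of the 9 genes over 21 combinations of library and cell type was most like that of Nkain2 (Pearson r 0.974), A330049N07Rik (0.943), Tmem88b (0.939) and Dbndd2 (0.934) among 16604 genes. Tmprss5, B230206H07Rik, Gm20619, Josd2 and Gm13403 followed, at 0.923 to 0.929. Of these 9 genes, which are not members, Josd2 stood at the highest percentage in T cells, 2.35% of its 10.8 UMIs per oligodendrocyte, and Nkain2 at 0.369% of 17.8. Mbp, at 5.93%, was higher. Among the members r with that mean ran from 0.745 for Mbp to 0.953 for Mog. The profiles share libraries and depth, and mature oligodendrocytes are 1 of the 21 points.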

How the data were processed

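UMI counts were deposited without normalization, 1 matrix of genes by barcodes for each library. Per the file headers, Cell Ranger wrote them (7.2.0 for vancomycin, 6.0.1 for control). The build was mm10 and Partek was used, per the submitters' processing notes. Intron counting and cell calling are not given in the sources used here. Library chemistry was 10x 5′ version 2, per the labels' protocols.

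Cells kept had at least 500 UMIs, 200 genes and at most 20% mitochondrial UMIs, which left out 870 vancomycin barcodes (5.24%) and 164 control barcodes (3.84%). Kept cells held 142111497 and 25119177 UMIs. Types were gated on 21 marker lists: a type needed 3 distinct markers, other types at most 1/2 as many, and 2 more than related types. Mature oligodendrocytes needed 10 of 12 markers, committed progenitors 10 Gpr17 UMIs, precursors 5 markers. Gate thresholds were set after marker counts were seen. The gates left 4351 vancomycin and 739 control cells in no type, and 0 cells passed as Schwann cells. Doublets were treated by the gate's limit on other types' markers, with Scrublet scores as an alternative.

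UMIs were summed per type and given per cell, as CPM and as shares. Intervals are exact Poisson, conditional Poisson or Clopper-Pearson at 95%. Bounds against 0 use 3 counts over the type in its library as the floor. Fold values from that floor leave out counting error of the other count. Ratios of vancomycin over control used 10 CPM added and genes with at least 50 UMIs. No test was made. Named genes were the 9 members, the 5 most abundant of each of 2 lists and the 10 genes with the most similar profile. A gene that this rule takes is not reported here. Members and lists were chosen with earlier results of these data known. Alternatives changed depth, doublets, filters, gates, weighting, pseudocount and scaling, with TMM from edgeR 4.0.16 and size factors from DESeq2 1.42.0 in R 4.3.3. Other values used scanpy 1.11.5, scipy 1.17.1, pandas 2.3.3 and numpy 2.4.6 under Python 3.11.15. The scripts were tested on simulated data.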

Additional observations from a re-analysis of the deposited data

How the results depend on the processing

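No paired analysis was possible because each group is 1 library. With each cell thinned to 1000 UMIs, the level of the 9 genes was 1459 CPM in vancomycin T cells, 1152 in vancomycin microglia and 158 in control microglia. The Mbp share became 22.4% in oligodendrocytes, 83.5% in vancomycin T cells, 82.4% in vancomycin microglia and 58.5% in control T cells, and the Mobp share in vancomycin T cells 4.22%. Log2 ratios of vancomycin over control became 2.75 in T cells and 2.79 in microglia. With every cell weighted equally the levels were 1471, 1291 and 155 CPM, the Mbp shares 22.3, 84.0, 82.5 and 59.7%, and the log2 ratios 2.73 and 2.98 in the same order. The ratio of microglia over T cells in the vancomycin library turned to 0.790 when thinned, 0.877 with equal weights and 0.757 on the CPM scale, and for Mobp to 0.864 thinned and 0.827 on the CPM scale, and for Mal to 0.976 on that scale. Without the 1% of cells richest in the 9 genes, levels were 958 CPM in vancomycin T cells, 732 in vancomycin microglia, 198 in control T cells and 131 in control microglia, Mbp shares 22.3% in oligodendrocytes, 80.4% in T cells and 77.9% in microglia, and the T cell log2 ratio 2.22. Without cells of other types holding a mature oligodendrocyte marker UMI, vancomycin levels were 1012 CPM in T cells and 744 in microglia, and log2 ratios 2.24 and 2.33. With 1 more marker needed, vancomycin microglia had 789 CPM. With 50 CPM added the log2 ratios were 2.13 and 2.18, and with DESeq2 size factors 2.26 in T cells. Over Mog, Mag, Mobp, Ermn and Opalin alone, Mobp took 65.0% in vancomycin T cells, against 15.8% in mature oligodendrocytes.

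No setting turned the excess of Mbp share in T cells or microglia over oligodendrocytes, or the direction of vancomycin over control for the 9 genes in T cells and microglia. Other scalings shifted all genes by -0.14 and -0.13 (log2) in plasma cells and by -0.10 and -0.11 in fibroblasts. Levels per cell stand beside those as CPM in the report. The cause of these moves was not tested. The 50 committed progenitors, the 15 control microglia with a Mobp UMI and the 53 control plasma cells limit what their counts show.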
